A study of Mus musculus with 6 samples.

Results

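The surrogate light chain and the CD79 signalling pair were followed in a mouse pre-B cell line in which miR-26 was raised or sequestered. The 6 genes were Igll1, Vpreb1, Vpreb2, Vpreb3, Cd79a and Cd79b. Every array feature named for one of them was taken, with control features left aside. This gave 7 probes, 1 for each gene except Cd79a, which had 2, among 55681 probes on the array and 31116 annotated gene names. Each of the 7 was printed once per array.

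The cells were line 1676, a culture derived from SLP-65-/- LAT-/- mouse bone marrow, so that both adaptor genes were missing in all groups, the controls included. All cells were kept in an excess of IL-7, the growth factor of early B cells, supplied as supernatant of IL-7-expressing J558L cells, and had been transduced with a retrovirus and selected. The control group carried the empty vector, the miR-26a group expressed hsa-miR-26a-2, and the sponge group expressed an RNA that sequesters miR-26 family members. There were 2 arrays per group, 1 from each of 2 independent experiments made with separately generated cell clones, and no array with a control sponge was analysed here. A single line limits the data as a model, and since each array holds bulk RNA, fewer expressing cells and less RNA per cell cannot be told apart.

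In early B cells a newly rearranged μ heavy chain cannot yet pair with a conventional light chain. It is held instead by the surrogate light chain, which λ5 (encoded by Igll1) and a VpreB protein (Vpreb1 or Vpreb2) form together, and this pre-B cell receptor (pre-BCR) signals through the heterodimer of Igα (Cd79a) and Igβ (Cd79b), whose cytoplasmic tyrosines are phosphorylated by Src-family kinases and bind Syk. Pre-BCR signalling drives the expansion of large pre-B cells. The surrogate light chain genes are normally switched off as cells move on to rearrange the light chain loci, whereas Cd79a and Cd79b stay on, since the mature B cell receptor needs them too. Vpreb3 encodes a related protein that binds immunoglobulin chains inside the cell but is not a component of the surface pre-BCR. The array measures RNA only, so neither receptor on the surface nor its signalling is reported by these values.

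The groups differ in the activity of miR-26, which recognises its targets chiefly through its seed, bases 2 to 8 of the mature RNA, shown in capitals in the mouse sequences from RefSeq (GRCm38.p6).

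mmu-miR-26a-5p: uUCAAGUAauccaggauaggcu

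mmu-miR-26b-5p: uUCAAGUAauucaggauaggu

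Both miRNAs share the seed UCAAGUA. None of the 7 probes held the matching words TACTTGA or ACTTGAA on the probe strand, which occurred in 0.431% and 0.7% of all array probes. These letters cover 60 bases of each transcript, so nothing is said of sites elsewhere in it.

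The probe sequences set what each value can mean, and 3 of them are shown. The Igll1 probe covers chr16:16861104-16861163 on the minus strand (mm9, the build of the array design) and begins at base 470 of its transcript. The Vpreb2 probe covers chr16:17981114-17981173 on the plus strand and begins at base 369, and its last 3 bases, a stop triplet that closes an open frame, are in capitals. The design assigns this probe to the transcripts of both Vpreb2 and Vpreb1, so that its signal cannot be given to Vpreb2 alone. The first Cd79a probe begins at base 321 and its 60 bases span 258 bases of the genome, chr7:25684357-25684614, so that it crosses an intron and is called the exon-junction probe.

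Igll1: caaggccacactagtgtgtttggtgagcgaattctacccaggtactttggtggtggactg

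Vpreb2: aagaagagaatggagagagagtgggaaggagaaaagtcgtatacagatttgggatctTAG

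Cd79a exon-junction probe: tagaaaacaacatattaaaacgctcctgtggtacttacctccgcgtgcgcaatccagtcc

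The other 4 probes lie further along their transcripts. The second Cd79a probe, at chr7:25686823-25686882, begins at base 930 and is called the Cd79a 3′ probe. The Vpreb1 probe lies at chr16:16868559-16868618, only 7396 bases from that of Igll1, whereas the Vpreb2 probe is 1112496 bases from that of Vpreb1 on the same chromosome. The Vpreb3 probe lies at chr10:75412326-75412385 and the Cd79b probe at chr11:106172780-106172839. No other probe of the array shared a run of 20 bases with any of the 7, on either strand.

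Vpreb1 and Vpreb2 are near copies of each other, and this reaches beyond the coding part. The 106 bases in front of the annotated start of Vpreb1 (chr16:16869256-16869361, minus strand, GRCm38.p6) recur in the window in front of Vpreb2 (chr16:17980315-17980420, plus strand), with 104 bases identical. The 2 differing bases are in capitals. Counted from the left end, with the Vpreb1 base first, they are G12T and C104T.

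Vpreb1 upstream: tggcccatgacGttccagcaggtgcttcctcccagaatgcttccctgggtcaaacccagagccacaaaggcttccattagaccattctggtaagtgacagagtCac

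Vpreb2 upstream: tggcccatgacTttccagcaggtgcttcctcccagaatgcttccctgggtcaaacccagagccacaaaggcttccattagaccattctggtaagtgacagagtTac

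By contrast, the probes named for the 2 genes share no run longer than 6 bases, so their signals come from different stretches of sequence. RefSeq promoter windows were found for 5 of the 6 genes.

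The scanner software marked each of the 7 spots as well above background on every array, none was saturated, and all passed the filter on dim probes that left 20168 probes to be tested. The mean signal of a spot was 104 to 9560 times its local background, lowest for the Cd79a exon-junction probe and highest for Vpreb1. It put the error of each of these spots at 10% of the signal. The number of spots clear of background was 28823 to 29800 of 59305 per array, and the Pearson correlation between the replicate arrays of a group, over the tested probes, lay between 0.996 and 0.997. Because the arrays of experiment 1 fill one row of the slide and those of experiment 2 the next, experiment and slide row cannot be told apart. Each group likewise sits in a single slide column, 1 for control, 2 for miR-26a and 4 for the sponge. Group and slide column therefore cannot be told apart in any comparison. Levels are given as log2 of the quantile-normalized signal and are compared only within a probe, between groups.

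The line carried the transcripts of a pre-B cell. Of 15 probes for pre-B markers, 12 stood well above background on every array, with Ebf1 at a processed signal of 8699 to 10556 and Cd24a at 61031 to 68098. The probe for Kit, which this list includes, was well above background on none. In its mice, the study gated pro-B cells as c-kit-positive and CD25-negative, and pre-B cells as c-kit-negative and CD25-positive. Cells negative for both markers were kept as an intermediate population. The μ constant region probe, found by its description because the array does not name it Ighm, had log2 levels between 15.33 and 15.70. Markers of other lineages were in part above background too. Of 7 T cell marker probes 3, of 11 myeloid marker probes 6 and of 3 erythroid marker probes 2 stood well above background on every array, among them Cd3e at a processed signal of 405 to 555, 1 Cd4 probe at 621 to 844, Elane at 238 to 303 and the brightest Itgam probe at 2611 to 4229. Over the whole array, 24974 of 55681 probes did so. The Cd3g, Cd14 and Gata1 probes were well above background on none. The summed processed signal of the myeloid list was 3983 to 4784 in the controls, 4058 to 4598 with miR-26a and 3347 to 5099 with the sponge. That of the T cell list was 1347 to 1436, 1299 to 1388 and 1067 to 1314. The erythroid list, near background, summed to 42.4 to 48.7, 45.4 to 57.0 and 50.1 to 59.2. These ranges overlapped between groups, apart from the sponge arrays, which lay below the controls for the T cell list and above them for the erythroid list. The pre-B list summed to 130632 to 138364, 123474 to 128717 and 135625 to 145588, lowest in the miR-26a arrays. The part of these sums in the values below was not tested.

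None of the 6 genes passed the test in any comparison. In the comparison of miR-26a with control, 0 of 7 probes were called at an adjusted p under 0.05 (limma, with the experiment as a block), whereas 9.72% of all tested probes were. For the sponge against control, 0 of 7 were called beside 0.00992% of all tested probes, so that hardly any probe on the array was. With miR-26a against the sponge, 0 of 7 were called beside 16.7%. At an unadjusted p under 0.05, limma counted 0 of 7 in each of the 3 comparisons, beside 27.3%, 16% and 34.4% of all tested probes. An unpaired test of each probe alone, with equal variances, counted 0, 1 and 1 of 7, all unadjusted. The probe counted was Vpreb1 in both cases (unadjusted p = 0.046 for the sponge against control and 0.0096 for miR-26a against the sponge). Neither was called after adjustment. Over all 20168 tested probes that test counted 1311 lower and 1362 higher with miR-26a against control. Its counts were 749 and 540 for the sponge against control, and 1316 and 1420 for miR-26a against the sponge. The 95% intervals of the 21 changes all contained 0. They lay within 0.780- to 1.17-fold for miR-26a against control, 0.731- to 1.21-fold for the sponge against control and 0.821- to 1.31-fold for miR-26a against the sponge. A missed threshold does not show that the levels were equal.

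**Figure D1:**
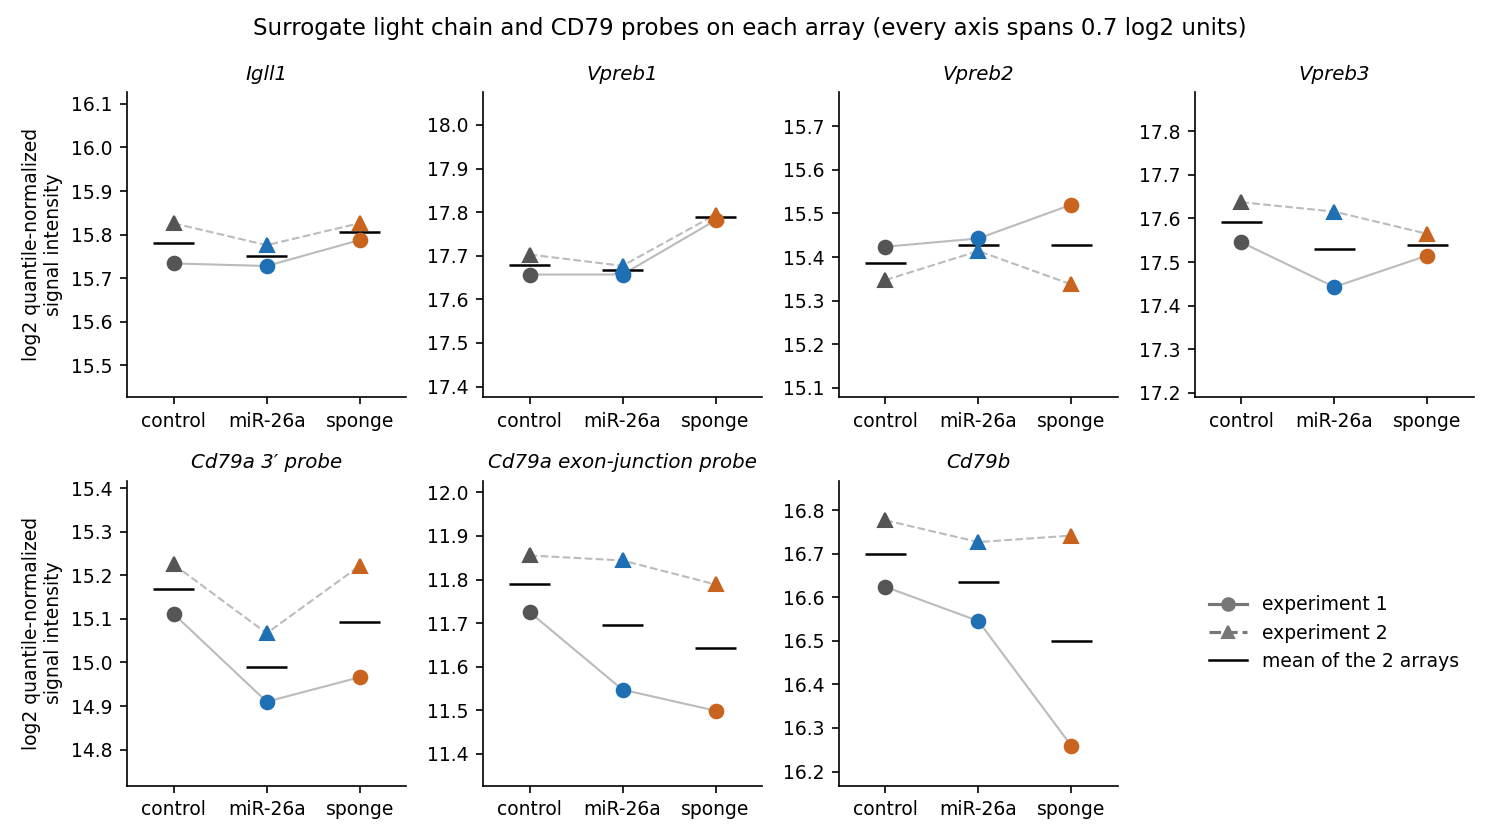
Log2 quantile-normalized signal of each probe (vertical axes, each spanning 0.7 log2 units) on the control, miR-26a and sponge arrays (horizontal axes), with circles for experiment 1, triangles for experiment 2, lines joining arrays of one experiment and bars at the mean of the 2 arrays. The Cd79b probe covered the widest range, from 16.26 to 16.78, and the Igll1 probe the narrowest, from 15.73 to 15.83.

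Igll1, which encodes λ5, was the steadiest of the 7. Its log2 level was 15.73 and 15.83 in the control arrays, 15.73 and 15.78 with miR-26a, and 15.79 and 15.83 with the sponge (experiment 1 first, here and throughout). The 6 values lay within 1.07-fold of each other, and the control and miR-26a groups overlapped, as did the control and sponge groups. Both miR-26a values lay just below both sponge values. The fitted change was -0.03 for miR-26a against control (SE 0.07, 95% interval -0.19 to 0.14, adjusted p = 0.84), 0.03 for the sponge against control (-0.14 to 0.19, adjusted p = 0.86) and -0.05 for miR-26a against the sponge (-0.22 to 0.11, adjusted p = 0.60).

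Vpreb1 encodes the VpreB chain that pairs with λ5. Its log2 level was 17.66 and 17.70 in the controls, 17.66 and 17.68 with miR-26a, and 17.78 and 17.79 with the sponge. Both sponge arrays thus lay above all 4 others, by a small margin. The sponge was higher than control by 0.12 in experiment 1 and 0.09 in experiment 2, and the fitted change was 0.11 (SE 0.07, 95% interval -0.06 to 0.27, adjusted p = 0.46). Against the sponge, miR-26a was lower by 0.12 in each experiment, with a fitted change of -0.12 (-0.28 to 0.04, adjusted p = 0.25). Both intervals contained 0, and scaling to the 75th percentile in place of quantile normalization brought the first change to 0.04 and the second to -0.02. With miR-26a against control the change was -0.01 (-0.18 to 0.15, adjusted p = 0.93), with the sign turned to 0.02 under 75th-percentile scaling.

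The probe shared by Vpreb2 and Vpreb1 did not show that step. Its log2 level was 15.42 and 15.35 in the controls, 15.44 and 15.41 with miR-26a, and 15.52 and 15.34 with the sponge. The sponge arrays included both the highest and the lowest of the 6 values, and all groups overlapped. The fitted change was 0.04 for miR-26a against control (95% interval -0.14 to 0.23, adjusted p = 0.77), 0.04 for the sponge against control (-0.14 to 0.23, adjusted p = 0.79) and -0.00034 for miR-26a against the sponge (-0.18 to 0.18, adjusted p = 0.998). This was the only one of the 7 probes whose level was lower in experiment 2 than in experiment 1, in each of the groups, by 0.08, 0.03 and 0.18.

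Vpreb3 had log2 levels of 17.55 and 17.64 in the controls, 17.44 and 17.62 with miR-26a, and 17.51 and 17.56 with the sponge. The lowest value was the miR-26a array of experiment 1, and the groups overlapped. The fitted change was -0.06 for miR-26a against control (95% interval -0.24 to 0.11, adjusted p = 0.64), -0.05 for the sponge against control (-0.23 to 0.12, adjusted p = 0.74) and -0.01 for miR-26a against the sponge (-0.19 to 0.16, adjusted p = 0.93). The last value took the other sign under 75th-percentile scaling, at 0.09.

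**Figure D2:**
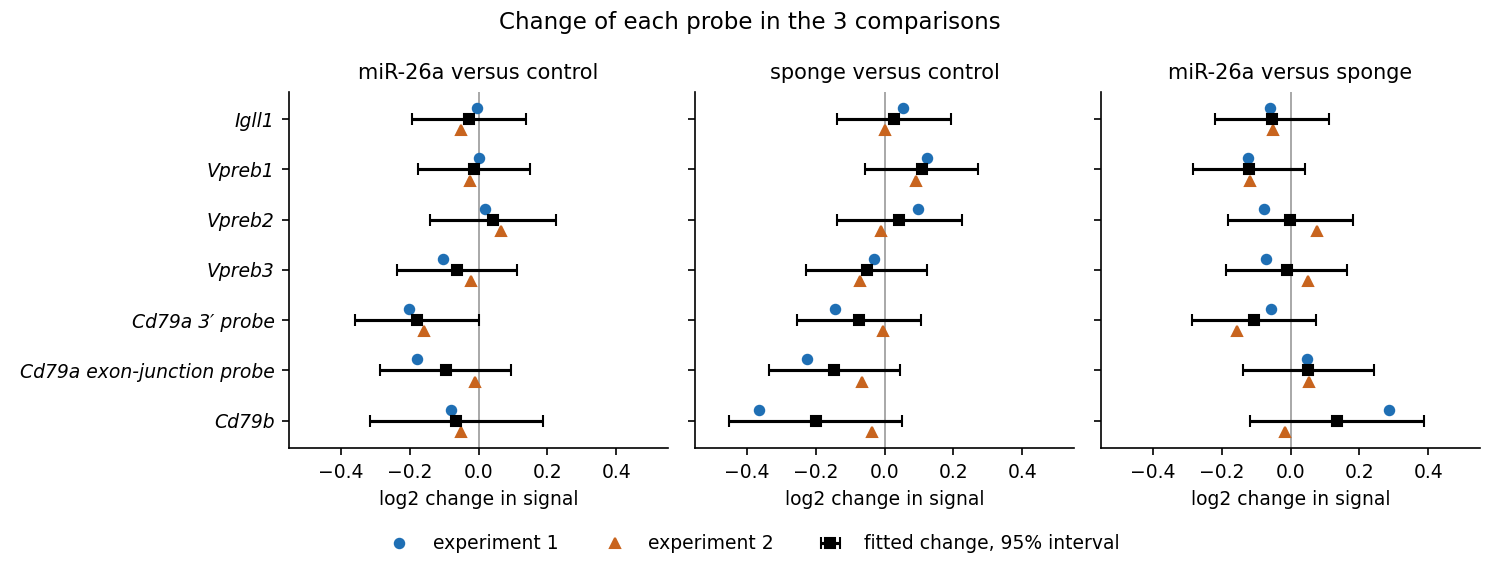
Log2 change of each probe (horizontal axes) in the 3 comparisons, with the limma estimate and its 95% interval as a square and bar, and the difference within experiment 1 (circle) and experiment 2 (triangle). Every interval contains 0, and the Cd79a 3′ probe with miR-26a against control comes closest to leaving it out, at -0.36 to 0.00015.

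Cd79a, encoding Igα, was read by both of its probes. The 3′ probe had log2 levels of 15.11 and 15.22 in the controls, 14.91 and 15.07 with miR-26a, and 14.97 and 15.22 with the sponge. Both miR-26a arrays lay below both control arrays, and miR-26a was lower within experiment 1 by 0.20 and within experiment 2 by 0.16. The fitted change was -0.18 (SE 0.07, 95% interval -0.36 to 0.00015, unadjusted p = 0.0501, adjusted p = 0.18). Under the 15 alternatives it lay at -0.23 to -0.13. Several of them alter only the test, the block, the filter or a sponge array, which leaves the estimate at -0.18 by construction. In those that could alter it, the direction was kept. The smallest adjusted p among the 15 was 0.17, with an unadjusted p of 0.039 under 75th-percentile scaling.

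The exon-junction probe of Cd79a had log2 levels of 11.73 and 11.86 in the controls, 11.55 and 11.84 with miR-26a, and 11.50 and 11.79 with the sponge. Here the groups overlapped, because the miR-26a and control arrays of experiment 2 were nearly level. Its fitted change with miR-26a was -0.09 (SE 0.08, 95% interval -0.29 to 0.10, adjusted p = 0.49), the same sign as the 3′ probe and 0.53 times its size. With the sponge against control the junction probe changed by -0.15 (-0.34 to 0.04, adjusted p = 0.40) and the 3′ probe by -0.07 (-0.25 to 0.11, adjusted p = 0.64). Set against each other, miR-26a and the sponge differed by 0.05 at the junction probe, which went to -1.3e-05 under 75th-percentile scaling, and by -0.11 at the 3′ probe (adjusted p = 0.67 and 0.35).

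Cd79b, encoding Igβ, varied most. Its log2 level was 16.62 and 16.78 in the controls, 16.55 and 16.73 with miR-26a, and 16.26 and 16.74 with the sponge. The sponge array of experiment 1 stood below the other 5, while that of experiment 2 fell among them. The sponge was accordingly lower than control by 0.36 in experiment 1 and by 0.03 in experiment 2, with a fitted change of -0.20 (SE 0.10, 95% interval -0.45 to 0.05, adjusted p = 0.39). Leaving out the sponge array of experiment 2 gave -0.36 (adjusted p = 0.27), and leaving out that of experiment 1 gave -0.04. With miR-26a against control the change was -0.06 (-0.32 to 0.19, adjusted p = 0.75), and with miR-26a against the sponge 0.14 (-0.12 to 0.39, adjusted p = 0.39).

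The step between the experiments was often larger than the step between the groups. In the sponge group Cd79b was 0.48 higher in experiment 2 than in experiment 1, against a largest fitted group difference of 0.20 in size for this probe. The Cd79a exon-junction probe was higher in experiment 2 by 0.13, 0.30 and 0.29 in the control, miR-26a and sponge groups, and the 3′ probe by 0.11, 0.16 and 0.26. Under 75th-percentile scaling the steps of Cd79b came to 0.0086, 0.06 and 0.22 and those of the junction probe to 0.07, 0.24 and 0.18, all still upward, while Vpreb2 stayed lower in experiment 2 by 0.21, 0.12 and 0.42. With that scaling the steps of Igll1 and Vpreb1 turned downward, as did those of Vpreb3 in the control and sponge groups, to -0.04 and -0.14, and of the Cd79a 3′ probe in the control group, to -0.02, so these have no settled direction.

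Counts of separated groups did not single out the members. Comparing miR-26a with control, the arrays of the groups did not overlap for 1 of the 7 probes, the Cd79a 3′ probe, against 49.5% of all tested probes. For the sponge this held for 1, Vpreb1, against 37.9%. With miR-26a against the sponge it held for 2, Igll1 and Vpreb1, both lower with miR-26a, against 51%. In miR-26a against control 6 of the 7 fitted changes (5 under 75th-percentile scaling) were below 0 and their median was -0.06, beside a median of 0.01 over all tested probes. The corresponding medians were -0.05 and 0.01 for the sponge against control (4 of 7 below 0) and -0.01 and 0.02 for miR-26a against the sponge (5 of 7 below 0). The control arrays are shared by the first and second comparisons, so their signs are not separate observations.

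In size, 6 of the 7 changes with miR-26a against control were smaller than the median absolute change of all tested probes, 0.12. For the sponge against control 4 of 7 were smaller than the median of 0.10, and with miR-26a against the sponge all 7 were smaller than the median of 0.15. Over the 6 arrays, the SD of the log2 level ran from 0.04 for Igll1 to 0.19 for Cd79b, and 5 of the 7 lay below the median SD of all tested probes, 0.14. Bright probes vary less on such arrays. Among the 1303 tested probes with a mean log2 level of at least 15 the median SD was 0.07. Of the 6 member probes in that range 3 lay below it, Igll1, Vpreb1 and Vpreb2. Vpreb3 was also at 0.07, whereas the Cd79a 3′ probe was at 0.13 and Cd79b at 0.19. The Igll1 and Vpreb probes were thus about as steady as bright probes in general, and the 2 bright CD79 probes less so.

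**Figure D3:**
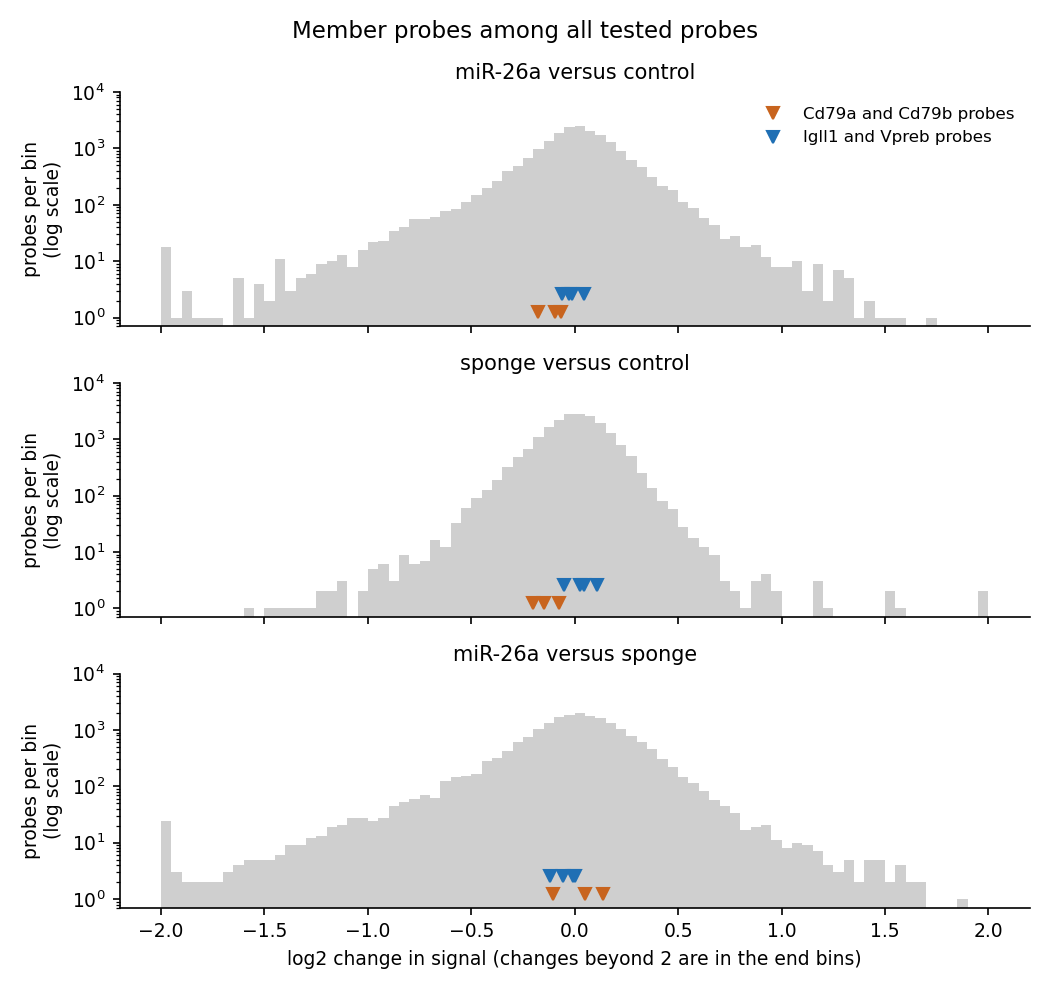
Number of tested probes per bin of log2 change (grey bars, log vertical axis, bin width 0.05) in the 3 comparisons, with triangles at the changes of the Igll1 and Vpreb probes and of the Cd79a and Cd79b probes, whose height has no meaning. All 7 triangles of each comparison lie between -0.20 and 0.14, in the central part of the distribution.

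The other parts of the pre-BCR pathway were read from a list of 22 genes for the heavy chain, kinases, adaptors and inhibitory receptors, of which 20 had a tested probe (27 probes). The μ heavy chain probe, which stands outside this count, had log2 levels of 15.44 and 15.69 in the controls, 15.33 and 15.70 with miR-26a, and 15.33 and 15.60 with the sponge, with changes of -0.06 for miR-26a (adjusted p = 0.67) and -0.10 for the sponge (adjusted p = 0.51) against control. Thus the RNA of the receptor's heavy chain, like that of its surrogate light chain, was not called.

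In the miR-26a arrays, against control, 3 of the 27 probes fell and 0 rose, a share near the 9.72% of all tested probes called, with a median of -0.11 for the list and 0.01 for all tested probes. Fyn, a Src-family kinase, fell by 0.64 (adjusted p = 0.021). Blnk, which encodes the SLP-65 adaptor that links Syk to phospholipase Cγ2, fell by 0.49 (adjusted p = 0.027), and Cblb, a ubiquitin ligase that restrains receptor signalling, fell by 0.35 at 1 of its probes (adjusted p = 0.042). The other Cblb probe, the dimmer of the pair, was not called. Blnk and Lat are the genes deleted in this line, yet the Blnk probe read 15.37 and 15.60, 14.90 and 15.08, and 15.60 and 15.59 in the control, miR-26a and sponge groups and the Lat probe 10.10 to 10.30 over the 6 arrays. Whether either probe lies in the deleted part is not given in the sources used here, so neither checks the genotype. The count of 3 was 0 without the experiment block, 0 without either control array, 1 without the miR-26a array of experiment 1 and 1 without either sponge array.

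Between CD79 and those adaptors stands Syk, whose brighter probe changed by -0.11 with miR-26a against control (adjusted p = 0.48) and by -0.25 with the sponge (adjusted p = 0.28). Its dimmer probe changed by -0.38 with miR-26a, lower in both experiments (adjusted p = 0.11), and by 0.08 with the sponge (adjusted p = 0.76), so the probes differed in sign there. The Syk relative Zap70 was at -0.24 and -0.27 by 2 probes with miR-26a (adjusted p = 0.19 and 0.15), and Plcg2, the phospholipase, at 0.17 (adjusted p = 0.26). In the sponge arrays, against control, limma called 0 of the 27 probes, beside 0.00992% of all tested probes. It put 7 at an unadjusted p under 0.05, beside 16% of all tested probes. The unpaired test of each probe counted 0, beside 749 lower and 540 higher of all 20168 tested. With miR-26a against the sponge 3 fell and 3 rose, beside 16.7% of all tested probes called. Blnk and Fyn fell by 0.61 and 0.70 (adjusted p = 0.012 and 0.013), while Vav1, a guanine nucleotide exchange factor, rose by 0.45 at its dimmer probe (adjusted p = 0.014), the adaptor Dok3 by 0.48 (adjusted p = 0.022) and Ptprc, the CD45 phosphatase, by 0.38 (adjusted p = 0.026). The brighter Vav1 probe was not called, at 0.20 (adjusted p = 0.13). That count of 6 was 2 without the block, 3 without the miR-26a array of experiment 1 and 0 without either sponge array.

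**Figure D4:**
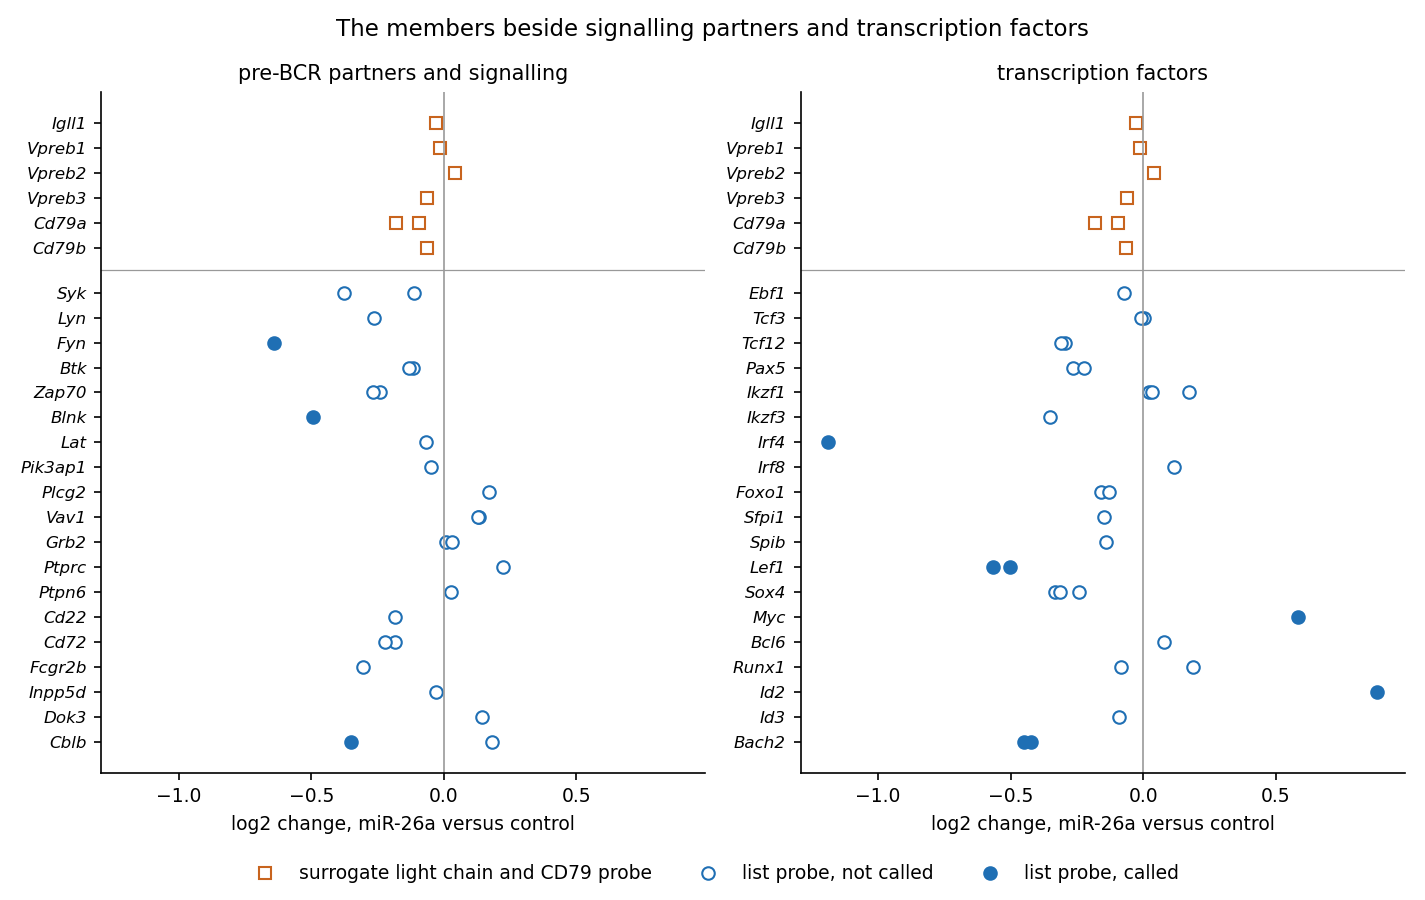
Log2 change with miR-26a against control (horizontal axes) of the surrogate light chain and CD79 probes (squares, upper rows) and of tested probes of 2 gene lists (circles, 1 per probe), filled where the adjusted p was under 0.05. The squares lie between -0.18 and 0.04, and the filled circles from Irf4 at -1.19 to Id2 at 0.88.

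Transcription factors known to act on these genes or, more broadly, at the pre-B stage were read from a second list of 19 genes (30 tested probes). Ebf1 and the E2A protein (Tcf3) activate Igll1, the Vpreb genes, Cd79a and Cd79b, Pax5 acts on Cd79a, and Ikzf1 (Ikaros) and Ikzf3 (Aiolos) help to silence the surrogate light chain. Ebf1 had log2 levels of 13.26 and 13.36 in the controls, 13.12 and 13.35 with miR-26a, and 12.99 and 13.28 with the sponge, with changes of -0.07 and -0.17 against control (adjusted p = 0.62 and 0.35). The groups overlapped, and the sponge array of experiment 1 was the lowest of the 6, as it was for Cd79b. Tcf3 changed by 0.0018 and -0.0063 with miR-26a at its 2 probes (adjusted p = 0.99 and 0.97), and Pax5 by -0.27 and -0.22 (adjusted p = 0.076 and 0.17). The 3 Ikzf1 probes changed by 0.02 to 0.17 with miR-26a, and the smallest adjusted p was 0.23. Ikzf3, with 1 probe, was at -0.35 with miR-26a, lower in both experiments (adjusted p = 0.063), and at -0.20 with the sponge (adjusted p = 0.34). When miR-26a was set against the sponge, 1 of the 2 Pax5 probes fell by 0.36 (adjusted p = 0.027) and 1 of the 3 Ikzf1 probes rose by 0.41 (adjusted p = 0.026), while the other Pax5 probe was at -0.25 (adjusted p = 0.10) and the other Ikzf1 probes at -0.08 and 0.0099 (adjusted p = 0.73 and 0.94).

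Of the whole factor list, 5 of the 30 probes fell and 2 rose with miR-26a against control, where 9.72% of all tested probes were called, and the list's median was -0.14. Irf4, which promotes light chain rearrangement, fell by 1.19 (adjusted p = 0.0046), Lef1 by 0.57 and 0.50 at its 2 probes (adjusted p = 0.010 and 0.019), while Id2, an inhibitor of E proteins, rose by 0.88 (adjusted p = 0.013) and Myc by 0.59 (adjusted p = 0.015). The count of 7 was 1 without the block, 1 without either control array and 4 without the miR-26a array of experiment 2 or either sponge array. In the sponge arrays, against control, limma called 0 of 30, beside 0.00992% of all tested probes. It put 7 at an unadjusted p under 0.05, beside 16% of all tested probes. The unpaired test of each probe counted 2, beside 749 lower and 540 higher of all 20168 tested. With miR-26a against the sponge 7 fell and 3 rose, beside 16.7% of all tested probes called, led by Irf4 and the 2 Lef1 probes, which fell by 1.06, 0.70 and 0.54 (adjusted p = 0.0036, 0.0043 and 0.012), followed by Id2, which rose by 0.69 (adjusted p = 0.017), and Tcf12, which fell by 0.55 (adjusted p = 0.018). That count of 10 was 3 without the block, 5 without the miR-26a array of experiment 2 and 1 without either sponge array.

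Other stage markers of the same cells set a scale for these values. Against control, 6 of the 12 tested pre-B marker probes fell with miR-26a and 0 rose, beside 9.72% of all tested probes called. Among those not called, Ebf1 changed by -0.07, Cd24a by 0.06, Il7r by 0.19 and the 2 Pax5 probes by -0.27 and -0.22. The falls given next are thus the larger changes of this list. The recombinase gene Rag2 read 9.37 and 9.35 in the controls and 6.04 and 5.96 with miR-26a, a fall of 3.36 (SE 0.10, adjusted p = 0.00092), and Rag1 fell by 2.46, Dntt by 1.12 and the 2 Bst1 probes by 1.33 and 1.24. The largest change of a member probe in the same comparison, -0.18 for the Cd79a 3′ probe, had an interval whose lower end was -0.36. Among markers of another lineage, 1 of 2 tested Itgam probes fell by 0.82 with miR-26a (adjusted p = 0.0070) and the other, brighter one changed by 0.06.

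Over the 6 arrays, the probes named for other genes that were most like each member were as follows. For Igll1 they were Gm15800, Cdc42ep4 and Fbxo4 (Pearson's r 0.98 each), for Vpreb1 Pcm1, Zfp119b and Agtpbp1 (0.99, 0.98 and 0.98), and for the shared Vpreb2 probe Whsc2, Synpo2l and Psma4 (0.998, 0.997 and 0.996). For Vpreb3 they were Nphp4, Abhd16a and Klk1b8 (0.99 each), for the Cd79a 3′ probe Sla, Hspb6 and Clic4 (0.998, 0.997 and 0.995), and for Cd79b Mll5, Nr1h2 and Commd4 (0.996, 0.995 and 0.993). None was another gene of the pre-BCR lists. With 6 arrays and 14706 probes searched, between 99 and 379 probes per member reached an r over 0.9, and the points share experiment, slide row and scaling, so these values are a description only. Among the members, r was 0.84 between the 2 Cd79a probes, 0.92 between Cd79b and the Cd79a exon-junction probe, -0.93 between Cd79b and Vpreb2, and 0.72 between Igll1 and Vpreb1.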

How the data were processed

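RNA of 6 cultures (100 ng each) was labelled with Cy3 and hybridized to one slide of Agilent 8x60K mouse arrays. The deposited signal intensities are background-subtracted scanner values (Agilent Feature Extraction, version 10.7.1.1 in the submitters' notes and 10.7.3.1 in the file headers), not otherwise normalized. A second deposited table holds the authors' quantile-normalized intensities on a linear scale, used only as an alternative. Here, flagged spots were left out, intensities quantile-normalized (limma 3.58.1, R 4.3.3) and log2-transformed, and spots averaged per probe. The filter kept probes that 1 or more arrays marked as well above background and whose processed signal exceeded 50 on 4 or more. They were tested by limma in 1 fit of the 6 arrays, with experiment as a blocking term. The block was chosen because the study normalized to each experiment's control, a step not applied to the values tested here. P-values were adjusted over all tested probes (Benjamini-Hochberg). The step was tested on simulated data. Pairing by experiment comes from the design text, and same-numbered arrays deviated together (r 0.38, 0.59 and 0.45). The number of arrays limits precision. The members and lists were chosen with earlier results of these data known. Every member probe was named, and of the lists at most the 5 called probes with the smallest adjusted p per comparison, beside probes of factors that act on the members, which were chosen after their values were seen. One listed gene is not reported here.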

Additional observations from a re-analysis of the deposited data

How the results depend on the processing

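No member probe was called under any of the 15 alternatives, and over the 315 recomputed changes the smallest adjusted p was 0.13. In 299 the direction was kept and in 16 it turned, 10 of them where 1 array was left out. Many of the 299 could not have turned. A change of test, block or filter leaves the log2 change itself as it was. So does leaving out an array of a group outside the comparison. Under 75th-percentile scaling Vpreb1 with miR-26a against control came to 0.0216, the Cd79a exon-junction probe with miR-26a against the sponge to -1.3e-05 and Vpreb3 there to 0.0885. With normexp background correction Vpreb2 came to 0.0375 with miR-26a against the sponge and -0.0035 with the sponge against control, and Vpreb3 to 0.0442 with miR-26a against the sponge. Leaving out 1 array gave, with miR-26a against control, -0.154 to 0.0254 for Cd79b, -0.0276 to 0.0019 for Vpreb1 and -0.0077 to 0.0932 for Vpreb2. It gave -0.0222 to 0.293 for Cd79b, -0.0654 to 0.0648 for Vpreb2 and -0.0616 to 0.0404 for Vpreb3 with miR-26a against the sponge, and -0.022 to 0.108 for Vpreb2 with the sponge against control. The cause was not tested. A lone array left in a group is assumed to vary like the others.

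Calls in the partner list with miR-26a against control, 3 as reported, were 0 without the replicate block, without the filter on dim probes, among probes well above background on all 6 arrays, by the unpaired test of each probe and by the test of the 2 log ratios alone, and 0 to 2 with 1 array left out. With miR-26a against the sponge the count of 6 became 2 without the replicate block, 3 among probes well above background on all 6 arrays, 0 without the filter or by either of those small tests, and 0 to 6 with 1 array left out. For the transcription factors with miR-26a against control the count of 7 became 1 without the replicate block, 2 among probes well above background on all 6 arrays, 0 without the filter or by either small test, and 1 to 6 with 1 array left out. With miR-26a against the sponge the count of 10 became 3 without the replicate block, 3 among probes well above background on all 6 arrays, 0 without the filter or by either small test, and 1 to 8 with 1 array left out. Over all probes, 1960 calls with miR-26a against control became 312 without the replicate block and 3374 with miR-26a against the sponge became 985, while the sponge against control had 2 in both. Without the filter, by the unpaired test of each probe or by the 2 log ratios alone all 3 counts were 0, and among probes well above background on all 6 arrays they were 566, 1520 and 0 in that order. With 1 array left out they ran from 219 to 1626, from 271 to 2451 and from 0 to 41, and for the sponge against control normexp gave 35, the filter on 2 arrays 10, 75th-percentile scaling 4 and gene means 1.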

Other observations

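The immature and mature B cell markers did not move as a group with miR-26a. Cr2, which encodes complement receptor CD21, was higher against control at both of its probes, by 0.91 and 1.18 (adjusted p = 0.0072 and 0.0029), whereas Cd74, the invariant chain of MHC class II, was lower by 2.25 (adjusted p = 0.0029), and Ms4a1 was well above background on none of the 6 arrays. The Cd74 probe read 7.53 and 8.35 in the controls, 5.14 and 6.24 with miR-26a, and 7.33 and 8.67 with the sponge, so that both miR-26a arrays lay below the other 4. Fcer2a, also on this list, was well above background on all 6 arrays but failed the filter on dim probes, so it was not tested. Its log2 level was 5.03 and 5.33 in the controls, 5.70 and 5.37 with miR-26a, and 4.22 and 5.81 with the sponge. Ighd, the remaining gene of the list, had no probe of that name. With the sponge against control limma called 0 of the 3 tested probes of this list, beside 0.00992% of all tested probes. It put 0 at an unadjusted p under 0.05, beside 16%, and the unpaired test of each probe counted 0.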
